A study of Mus musculus with 77 samples.

Results

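Toll-like receptors detect microbial products and the debris of damaged cells, and signal through adaptor proteins and kinases to nuclear factor κB (NF-κB), a family of transcription factors. NF-κB is held in the cytoplasm by inhibitor proteins of the IκB family, and several of its target genes encode proteins that switch the pathway off again. In liver, macrophages and sinusoidal endothelial cells carry many of these receptors, and tumour necrosis factor (TNF) and interleukin-1 (IL-1) reach NF-κB through receptors of their own. The 39 genes described here were listed by name for their place in this pathway, under a rule that uses no measured value. They were still chosen with earlier results of these data known, and all were found in a count table of 55487 genes. They comprise 10 Toll-like receptors, 2 co-receptors, 7 adaptors and kinases, 5 NF-κB subunits, 6 inhibitor and feedback genes, 7 TNF, IL-1 and IL-6 genes and 2 adhesion molecules. Of the 39, 38 had enough counts to be tested among 14904 genes, and Il6, which had no count in 56 of 77 mice, was not.

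Liver RNA was sequenced from 77 male C57BL/6JRj mice, 1 library per mouse, in 10 groups. DIO-MASH mice were 5 to 6 weeks old when they started the Gubra Amylin NASH diet, which is rich in fat, fructose and cholesterol, and ate it for 34 weeks. They had a liver biopsy 4 weeks before treatment and were selected by steatosis and fibrosis score, so they stand for mice with established disease. Semaglutide, a GLP-1 receptor agonist, was injected under the skin once daily at 123 µg per kg for 8 weeks (7 mice), 16 weeks (8 mice) or 24 weeks (8 mice). The paper does not state what these mice ate during dosing. Chow reversal mice, which the paper does not describe, were taken as DIO-MASH mice moved to chow and injected with vehicle for 8 weeks (7 mice), 16 weeks (8 mice) or 24 weeks (8 mice). Vehicle mice stayed on the MASH diet for 8 weeks (9 mice), 16 weeks (8 mice) or 24 weeks (7 mice), and 7 mice that had eaten only chow received vehicle for 24 weeks. All 10 groups were dosed by the same route.

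Levels are given as CPM, a gene's count scaled by the library size and the TMM factors that the tests also used, as the lowest, median and highest mouse of a group. Differences are log2 fold changes with their standard error from 1 edgeR quasi-likelihood fit over all 10 groups, and a gene was called where its p, adjusted over the 14904 genes by the Benjamini-Hochberg method, was under 0.05. Total counts ran from 8883190 to 37631125 per library (median 16406976). Markers of hepatocytes were abundant in every mouse, at a summed level of 47829 to 140475 CPM. The 3 libraries with the latest library numbers, 2 of semaglutide at 16 weeks and 1 at 24 weeks, had 3.34% to 4.11% of their counts in predicted genes, against 1.07% to 2.73% in the other 74. Replicate 7 of chow reversal at 24 weeks was the highest of its group for 25 of the 38 genes, and replicate 5 of the chow group for 23. These 2 counts were not made over all tested genes. In whole liver, fewer cells of a type and less RNA per cell cannot be told apart.

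Per kilobase of exon, the most abundant of the 39 genes over all mice was Tnfrsf1a, the TNF receptor found on most cells, at a mean level of 37.5 CPM per kb. Nfkbia and Rela followed at 22.0 and 15.7 CPM per kb. The receptors were far less abundant, with Tlr2 at 2.32, Tlr5 at 1.57, Tlr4 at 0.365 and Tlr9 at 0.175 CPM per kb.

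The MASH diet set these genes well apart from chow. In vehicle mice against chow mice at 24 weeks, 25 of the 38 genes were higher and 2 lower, where 47.8% of all tested genes were called, and the median log2 fold change was 1.42 against -0.0215 over all genes. All 7 vehicle mice were above all 7 chow mice for 19 genes, a count that was not made over all tested genes. Without replicate 5 of the chow group, 26 genes were higher and 2 lower. After 24 weeks of semaglutide, 21 genes were still higher than in chow and 2, Irak1 and Irak2, lower (31.4% of all genes called), of which Irak1 was called lower in none of the 8 other settings. After 24 weeks of chow reversal 11 were higher and none lower (6.63% of all genes called). That last count turned on single mice, since it was 2 without replicate 7 of chow reversal and 20 without replicate 5 of chow, and it was 0 when only these 2 groups were fitted. Over all genes the count moved as well, from 988 to 469, 1334 and 129 in these settings, in that order.

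Semaglutide lowered part of the list at the later times. Against vehicle, none of the 38 genes was called at 8 weeks (5.75% of all genes called), 11 were lower at 16 weeks (12.2%) and 20 were lower at 24 weeks (24.3%), and none was higher. Their median log2 fold change was -0.15, -0.36 and -0.43 in weeks 8, 16 and 24, where the median over all genes was -0.0023, -0.0011 and -0.0103. At 8 weeks 11 of the 38 had an unadjusted p under 0.05 (edgeR), as did 2975 of all 14904 genes. Among other settings DESeq2 called 1 of the 38 lower, library totals gave 3 lower, and a fit of only the groups compared gave 5 lower and 1, Il1r1, higher. Over all genes these settings called 1101, 1208 and 2115, against 857. At 24 weeks Ticam1 was called higher without the 3 latest-numbered libraries, and the calls of Irak4, Nfkb1 and Tlr6 were each lost in 2 of 7 other settings. The 16-week count was not stable: it was 3 without the 3 latest-numbered libraries, 5 with library-number sets in the model or with only the groups compared, 6 with no filter and 20 with library totals. Over all genes the count moved as well, from 1824 to 742, 713, 533, 1365 and 2724 in these settings, in that order. The effect at 24 weeks minus that at 8 weeks was called for none of the 38 by edgeR or DESeq2 (0.0604% of all genes called). Of the 38, 5 had an unadjusted p under 0.05 (edgeR), as did 681 of all 14904 genes.

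Chow reversal lowered over 20 of these genes at each time. Against vehicle, 22 genes were lower at 8 weeks (32.1% of all genes called), 23 at 16 weeks (28.2%) and 22 at 24 weeks (36.1%), and Irak1 alone was higher, at 24 weeks, a direction that turned when libraries were scaled by total count. Median log2 fold changes were -0.56, -0.60 and -0.77. Set directly against chow reversal, semaglutide left 11 genes higher at 8 weeks (6.16% of all genes called), 8 higher at 16 weeks (9.8%), and 7 higher and 1, Irak1, lower at 24 weeks (16.5%). The 16-week count was 5 without the 3 latest-numbered libraries, when 869 of all genes were called, against 1460 with them. The 24-week count rested on replicate 7 of chow reversal: without it 16 genes were higher and 1 lower, 6 were higher and none lower without replicate 8, and with only these 2 groups in the fit 2 were higher. Over all genes these settings called 3065, 1741 and 515, against 2457. Scaled by total count, 9 members were higher and none, Irak1 included, was lower. Within vehicle mice, Tlr2 and Tnip1 rose between 8 and 24 weeks and the other 36 genes were not called (0.792% of all genes called).

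**Figure D1:**
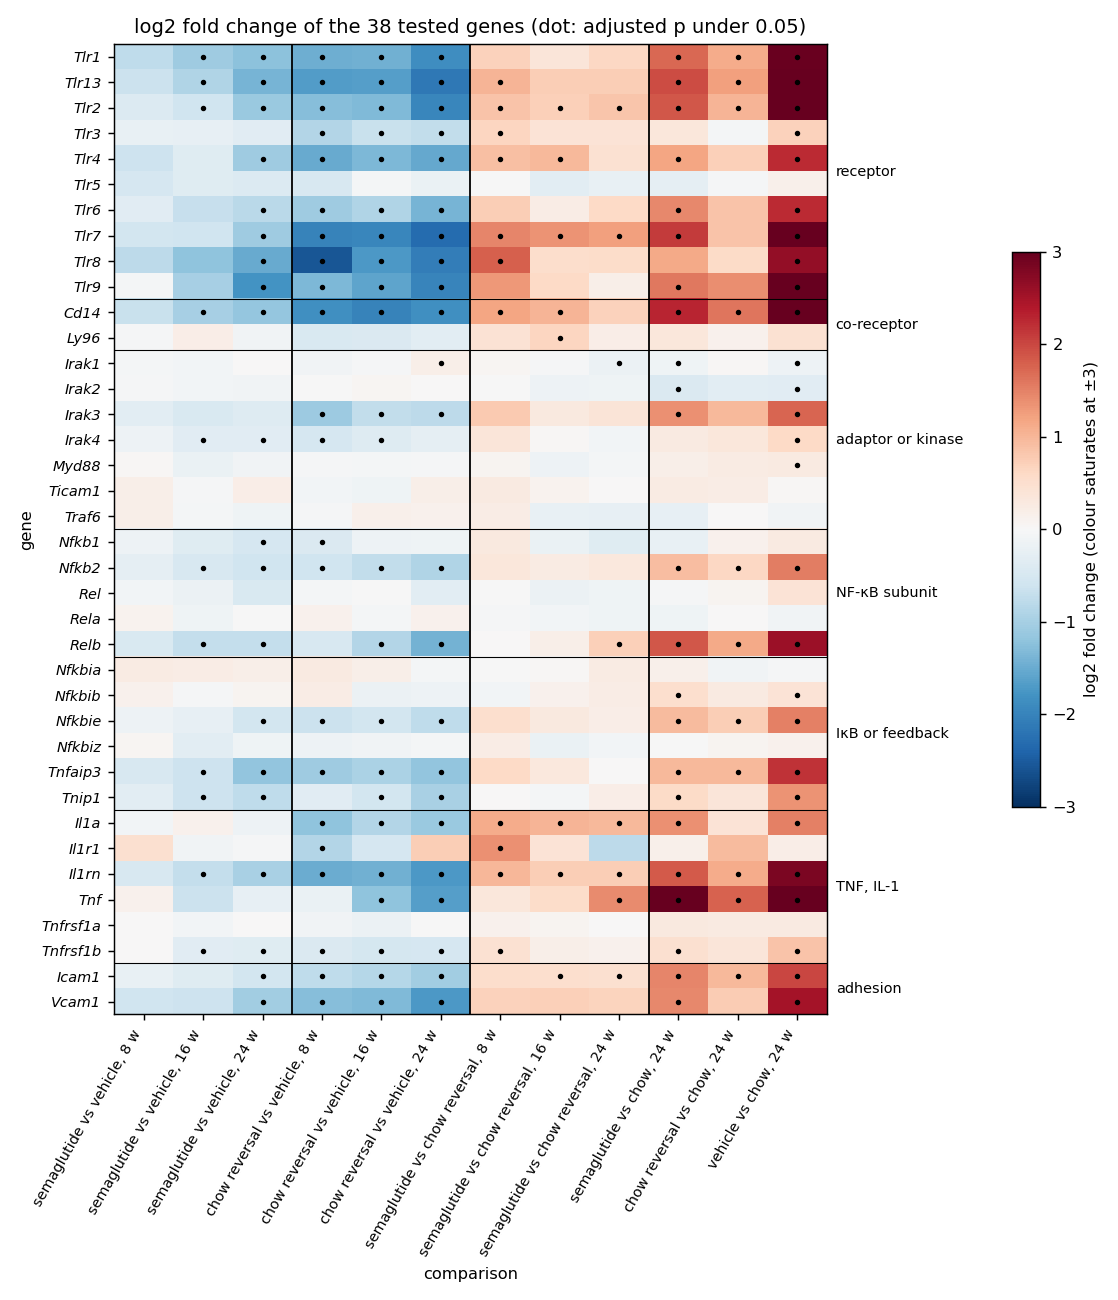
Log2 fold change of the 38 tested genes (down, by role) in 12 comparisons (across). Red is higher and blue lower in the first-named group, colour stops at 3 in either direction, and a dot marks an adjusted p under 0.05; the receptor rows carry most of the dark cells, while the adaptor rows are pale. The small differences of Irak1 and Irak2 against chow turned direction when libraries were scaled by total count.

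The Toll-like receptors had a median log2 fold change of 2.80 in vehicle against chow mice and of -1.09 in semaglutide against vehicle mice at 24 weeks, where that of all 38 genes was 1.42 and -0.43. Of 10 receptors, 9 were higher in vehicle than in chow mice, Tlr5, the flagellin receptor, being the exception at 0.15 ± 0.30, adjusted p = 0.723. Semaglutide lowered 0, 3 and 8 of the 10 in weeks 8, 16 and 24, when 3.51%, 5.8% and 13.6% of all genes were lower, and chow reversal lowered 9 each time, when 17.9%, 16.2% and 19.1% were lower. Tlr3 and Tlr5 were not called under semaglutide at any time, and at 24 weeks their values were -0.34 ± 0.18, adjusted p = 0.162, and -0.41 ± 0.30, adjusted p = 0.321.

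Tlr2 encodes the cell-surface receptor for bacterial lipoproteins, which pairs with the products of Tlr1 or Tlr6. Tlr2 had 4.64, 6.8 and 10.1 CPM in semaglutide mice at 24 weeks, 2.6, 3.08 and 7.42 CPM in chow reversal mice, 11.9, 13.4 and 22.8 CPM in vehicle mice and 1.13, 1.44 and 4.14 CPM in chow mice. All 8 semaglutide mice were below all 7 vehicle mice and above every chow mouse. Earlier, Tlr2 stood at 4.64, 7.03 and 9.1 CPM with semaglutide, 3.42, 4.07 and 4.39 CPM with chow reversal and 7.96, 9.3 and 11.4 CPM with vehicle (week 8), and at 4.48, 6.48 and 9.15 CPM with semaglutide, 2.59, 4.06 and 5.56 CPM with chow reversal and 8.06, 9.49 and 14.7 CPM with vehicle (week 16). Its difference between semaglutide and vehicle was -0.41 ± 0.18, adjusted p = 0.18, in week 8, -0.61 ± 0.18, adjusted p = 0.02, in week 16 and -1.12 ± 0.19, adjusted p = 7.35e-06, in week 24. Against chow reversal, semaglutide mice were higher at all 3 times, by 0.86 ± 0.20, adjusted p = 0.00355, in week 8, 0.72 ± 0.19, adjusted p = 0.00744, in week 16 and 0.84 ± 0.19, adjusted p = 0.00128, in week 24. Vehicle mice themselves rose in Tlr2 between 8 and 24 weeks (0.67 ± 0.18, adjusted p = 0.0444, a call lost in 3 of 7 other settings), and every 24-week mouse was above every 8-week mouse.

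Tlr1 had 1.47, 3.04 and 4.28 CPM in semaglutide mice at 24 weeks, 0.707, 1.33 and 5.36 CPM in chow reversal mice, 4.92, 6.44 and 9.94 CPM in vehicle mice and 0.151, 0.746 and 2.39 CPM in chow mice. The semaglutide and vehicle mice did not overlap. The week 8 levels of Tlr1 were 2.07, 3.04 and 5.41 CPM with semaglutide, 1.42, 1.79 and 3.52 CPM with chow reversal and 4.21, 5.34 and 7.23 CPM with vehicle, and those of week 16 were 1.7, 2.83 and 3.36 CPM with semaglutide, 1.46, 1.85 and 3.28 CPM with chow reversal and 3.54, 5.14 and 9.37 CPM with vehicle. The semaglutide groups overlapped the vehicle group by 1 mouse at 8 weeks and by none at 16 weeks. The difference between semaglutide and vehicle was -1.08 ± 0.26, adjusted p = 0.00451, in week 16 and -1.24 ± 0.27, adjusted p = 4.33e-04, in week 24, and between chow reversal and vehicle -1.86 ± 0.28, adjusted p = 1.13e-07, in week 24. Tlr6, present at 0.97 CPM on average, ran from 0.244 to 1.4 CPM in semaglutide mice, from 0.244 to 1.24 CPM in chow reversal mice, from 1.19 to 2.1 CPM in vehicle mice and from 0.155 to 0.703 CPM in chow mice at 24 weeks. Semaglutide against vehicle gave -0.80 ± 0.27, adjusted p = 0.0234, for Tlr6 at that time.

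Tlr13, a mouse receptor for bacterial ribosomal RNA, was higher in vehicle than in chow mice by 3.36 ± 0.32, adjusted p = 2.13e-14. Tlr13 had 2.75, 3.67 and 6.11 CPM in semaglutide mice at 24 weeks, 1.37, 2.06 and 5.07 CPM in chow reversal mice, 7.89, 11 and 12.8 CPM in vehicle mice and 0.159, 0.602 and 3.58 CPM in chow mice. The semaglutide mice were all below the vehicle mice. In week 8, Tlr13 had 3.43, 4.55 and 12.3 CPM with semaglutide, 1.32, 2.49 and 4.31 CPM with chow reversal and 5.42, 7.79 and 12.2 CPM with vehicle, and in week 16 2.69, 4.2 and 5.46 CPM with semaglutide, 1.73, 2.27 and 3.57 CPM with chow reversal and 5.72, 7.23 and 12.5 CPM with vehicle. At 8 weeks 1 semaglutide mouse, replicate 3, was above every vehicle mouse, and the other 6 were below them. Semaglutide against vehicle gave -0.65 ± 0.26, adjusted p = 0.126, in week 8, -0.90 ± 0.26, adjusted p = 0.0158, in week 16 and -1.39 ± 0.27, adjusted p = 7.78e-05, in week 24.

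**Figure D2:**
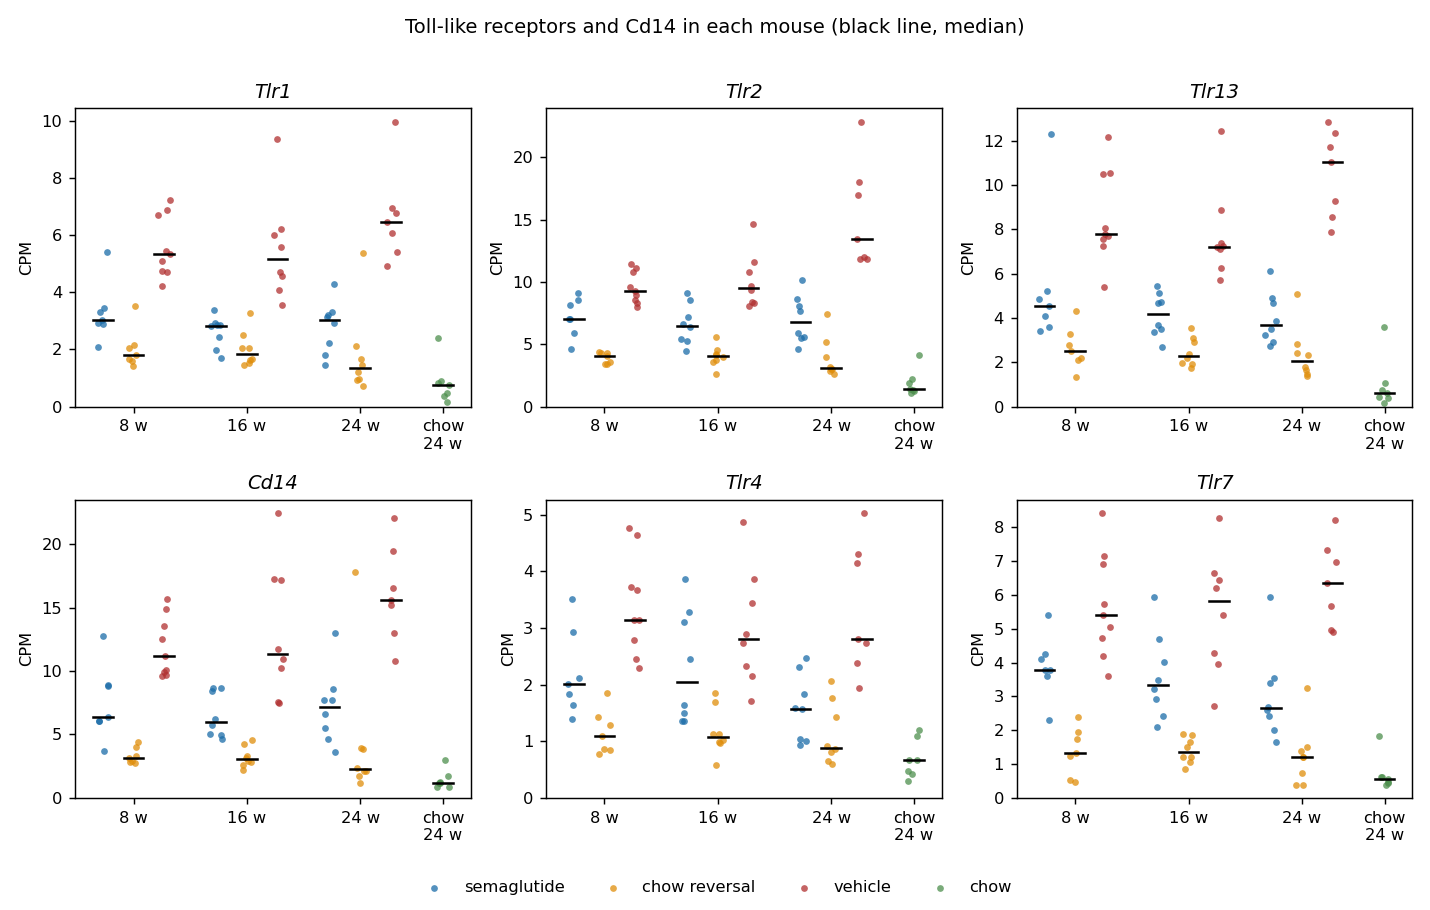
Level in CPM (vertical axis, from 0) of 5 Toll-like receptors and Cd14 in each mouse (points) by treatment and week, with the group median as a black line. For Tlr1, Tlr2 and Tlr13 all semaglutide mice at 24 weeks lie under the vehicle mice, and 1 chow reversal mouse at 24 weeks lies far above its group for Cd14.

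Tlr7, Tlr8 and Tlr9 encode receptors of the endosome, Tlr7 and Tlr8 for RNA and Tlr9 for DNA. Tlr7 had 1.66, 2.65 and 5.95 CPM in semaglutide mice at 24 weeks, 0.381, 1.21 and 3.24 CPM in chow reversal mice, 4.9, 6.36 and 8.23 CPM in vehicle mice and 0.373, 0.558 and 1.83 CPM in chow mice. In 7 of 8 semaglutide mice Tlr7 was below every vehicle mouse. Earlier, Tlr7 stood at 2.31, 3.79 and 5.41 CPM with semaglutide, 0.48, 1.34 and 2.4 CPM with chow reversal and 3.61, 5.41 and 8.42 CPM with vehicle (week 8), and at 2.09, 3.35 and 5.95 CPM with semaglutide, 0.863, 1.36 and 1.9 CPM with chow reversal and 2.71, 5.81 and 8.28 CPM with vehicle (week 16). Semaglutide and chow reversal differed in Tlr7 at all 3 times, by 1.46 ± 0.30, adjusted p = 8.47e-04, in week 8, 1.35 ± 0.28, adjusted p = 6.34e-04, in week 16 and 1.24 ± 0.29, adjusted p = 0.00186, in week 24, higher with semaglutide each time. Against vehicle, semaglutide gave -1.06 ± 0.27, adjusted p = 0.00266, in week 24 and chow reversal -2.30 ± 0.29, adjusted p = 1.24e-09. Tlr8 showed -1.51 ± 0.48, adjusted p = 0.0145, and -2.06 ± 0.49, adjusted p = 5.37e-04, in the same pair of comparisons. Tlr9 was near the limit of detection, from 0.122 to 0.673 CPM in semaglutide mice, from 0.0762 to 0.589 CPM in chow reversal mice, from 0 to 2.03 CPM in vehicle mice and from 0 to 0.209 CPM in chow mice at 24 weeks, with -1.79 ± 0.45, adjusted p = 0.00199, for semaglutide against vehicle. The groups overlapped, since 1 vehicle mouse had no Tlr9 count.

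Tlr4 encodes the receptor for bacterial lipopolysaccharide, and Cd14 and Ly96 (MD-2) the proteins that load lipopolysaccharide onto it. Tlr4 had 0.939, 1.58 and 2.47 CPM in semaglutide mice at 24 weeks, 0.602, 0.89 and 2.06 CPM in chow reversal mice, 1.95, 2.81 and 5.03 CPM in vehicle mice and 0.303, 0.671 and 1.19 CPM in chow mice. The week 8 levels of Tlr4 were 1.4, 2.02 and 3.51 CPM with semaglutide, 0.778, 1.09 and 1.85 CPM with chow reversal and 2.3, 3.15 and 4.77 CPM with vehicle, and those of week 16 were 1.35, 2.05 and 3.86 CPM with semaglutide, 0.575, 1.08 and 1.86 CPM with chow reversal and 1.72, 2.81 and 4.86 CPM with vehicle. Tlr4 overlapped between semaglutide and vehicle mice at every time, and the difference was -1.06 ± 0.26, adjusted p = 0.00189, in week 24, with no call at 8 or 16 weeks. Cd14 was the more abundant per kilobase. Cd14 had 3.62, 7.17 and 13 CPM in semaglutide mice at 24 weeks, 1.14, 2.26 and 17.8 CPM in chow reversal mice, 10.8, 15.6 and 22.1 CPM in vehicle mice and 0.832, 1.19 and 3.02 CPM in chow mice. Of the chow reversal mice, replicate 7 alone, at 17.8 CPM, reached the vehicle range, as did the highest semaglutide mouse. In week 8, Cd14 had 3.72, 6.38 and 12.7 CPM with semaglutide, 2.72, 3.12 and 4.38 CPM with chow reversal and 9.63, 11.2 and 15.7 CPM with vehicle, and in week 16 4.64, 5.98 and 8.65 CPM with semaglutide, 2.2, 3.03 and 4.57 CPM with chow reversal and 7.49, 11.4 and 22.4 CPM with vehicle. Semaglutide lowered Cd14 at 16 weeks (-1.0 ± 0.29, adjusted p = 0.0158) and 24 weeks (-1.16 ± 0.30, adjusted p = 0.00248). Chow reversal against vehicle gave -1.85 ± 0.30, adjusted p = 9.84e-07, in week 24, and -2.68 ± 0.26 without replicate 7. Semaglutide against chow reversal was not called for Cd14 at 24 weeks (0.69 ± 0.30, adjusted p = 0.0996), but was without that mouse, at 1.54 ± 0.25 (edgeR, adjusted p = 4.18e-06). Ly96 was not called against vehicle at 24 weeks, at -0.12 ± 0.19, adjusted p = 0.694, for semaglutide and -0.32 ± 0.19, adjusted p = 0.198, for chow reversal. At 16 weeks Ly96 was called higher with semaglutide than with chow reversal, a call lost in 3 of 7 other settings.

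Markers of macrophages and monocytes moved beside the receptors. Of 11 such markers, 0, 5 and 9 were lower with semaglutide at 8, 16 and 24 weeks, 10, 10 and 11 were lower with chow reversal, and 11 were higher in vehicle than in chow mice (25.8% of all genes higher); the shares of all genes lower are those given for the receptors. Their summed level at 24 weeks was 267, 406 and 704 CPM in semaglutide mice, 89.4, 165 and 481 CPM in chow reversal mice, 609.8, 822 and 956 CPM in vehicle mice and 56.7, 74.2 and 238 CPM in chow mice (lowest, median and highest), and no marker was at 0 in every mouse of a group. Of 6 Kupffer cell markers, semaglutide lowered 1 and raised 1 at 24 weeks, near the 24.3% of all genes called, and chow reversal lowered 4 (36.1% called). Of 10 hepatocyte markers, 6 were higher with semaglutide (10.8% of all genes higher) and 8 with chow reversal (17% higher) at 24 weeks. Their part in the receptor results was not tested.

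Of the 7 adaptors and kinases that carry the receptor signal, semaglutide lowered 1, Irak4, at 16 and 24 weeks, a share of 14.3% beside 5.8% and 13.6% of all genes. Myd88, the adaptor shared by most Toll-like receptors and the IL-1 receptor, Ticam1 (TRIF), the adaptor of Tlr3 and Tlr4, and Traf6, a ubiquitin ligase, were not called under semaglutide or chow reversal against vehicle at any time. At 24 weeks semaglutide against vehicle gave -0.10 ± 0.09, adjusted p = 0.443, for Myd88, 0.21 ± 0.12, adjusted p = 0.199, for Ticam1 and -0.12 ± 0.11, adjusted p = 0.452, for Traf6. Myd88 was slightly higher in vehicle than in chow mice, at 0.28 ± 0.09, adjusted p = 0.00738. Irak4, the kinase recruited first, was lower with semaglutide at 16 weeks (-0.35 ± 0.11, adjusted p = 0.0353) and 24 weeks (-0.34 ± 0.12, adjusted p = 0.0264), when the 8 semaglutide mice were below the 7 vehicle mice. These calls were lost in 4 and 2 of 7 other settings. Irak3 (IRAK-M), an inhibitory member found mainly in macrophages, was not called with semaglutide (-0.39 ± 0.30, adjusted p = 0.35, in week 24) but was lower with chow reversal at all 3 times, with -1.09 ± 0.31, adjusted p = 0.00481, in week 8.

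Irak1 and Irak2 were the 2 members lower in vehicle than in chow mice. Irak1 had 55.5, 58.3 and 69.9 CPM in semaglutide mice at 24 weeks, 61.4, 66.4 and 75.3 CPM in chow reversal mice, 50.3, 59.9 and 64.9 CPM in vehicle mice and 62.5, 65.3 and 68.7 CPM in chow mice. Earlier, Irak1 stood at 59, 62 and 65 CPM with semaglutide, 56.6, 59.1 and 63.5 CPM with chow reversal and 57.7, 62.9 and 71.8 CPM with vehicle (week 8), and at 52.6, 59.9 and 63.9 CPM with semaglutide, 58.1, 60.3 and 66.5 CPM with chow reversal and 55.4, 63.2 and 68.5 CPM with vehicle (week 16). These ranges overlapped throughout, and the difference between vehicle and chow was -0.16 ± 0.06, adjusted p = 0.0171, which became 0.27 when libraries were scaled by total count. Irak2 had 13.7, 16.8 and 21 CPM in semaglutide mice at 24 weeks, 13.7, 19.2 and 22.6 CPM in chow reversal mice, 13.9, 18.1 and 20.5 CPM in vehicle mice and 16.6, 23.5 and 30.7 CPM in chow mice. The week 8 levels of Irak2 were 16.9, 19.3 and 23.8 CPM with semaglutide, 15.7, 20.0 and 25.6 CPM with chow reversal and 16.5, 19.9 and 22.3 CPM with vehicle, and those of week 16 were 13.1, 18 and 20.9 CPM with semaglutide, 15.6, 20.0 and 21.6 CPM with chow reversal and 14.7, 19.2 and 20.8 CPM with vehicle. For Irak2 the difference was -0.33 ± 0.11, adjusted p = 0.0119, and 0.10 with total-count scaling. Scaled by total count, the median log2 fold change of all genes in that comparison was 0.40, against -0.0215 with the scaling used here, so the direction of both genes depends on the scaling. Under semaglutide, Irak1 and Irak2 were not called against vehicle at any time.

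The 5 NF-κB subunits split. Nfkb2 and Relb encode the pair of the alternative NF-κB pathway, and Rela, Nfkb1 and Rel the subunits of the classical one. Nfkb2 had 10.4, 17 and 21.4 CPM in semaglutide mice at 24 weeks, 7.47, 10.5 and 34.4 CPM in chow reversal mice, 22.7, 24.1 and 31.6 CPM in vehicle mice and 6.62, 8.43 and 11.3 CPM in chow mice. All 8 semaglutide mice were below all 7 vehicle mice, and replicate 7 of chow reversal had the highest value of any group. In week 8, Nfkb2 had 14, 16.6 and 21.2 CPM with semaglutide, 11.5, 13.8 and 16.1 CPM with chow reversal and 16.3, 21.1 and 23.1 CPM with vehicle, and in week 16 8.85, 17.1 and 19.6 CPM with semaglutide, 10.7, 12.9 and 16.6 CPM with chow reversal and 18.4, 21.8 and 26.1 CPM with vehicle. Semaglutide against vehicle gave -0.59 ± 0.17, adjusted p = 0.00618, in week 24 and chow reversal -0.91 ± 0.17, adjusted p = 1.18e-05. Part of Nfkb2 overlaps Psd on the other strand. Relb differed by -0.70 ± 0.24, adjusted p = 0.0255, with semaglutide and by -1.42 ± 0.25, adjusted p = 3.28e-06, with chow reversal at 24 weeks, and vehicle exceeded chow by 2.56 ± 0.28, adjusted p = 2.18e-12. Nfkb2 and Relb were also called lower with semaglutide than with vehicle at 16 weeks, calls lost in 4 and 3 of 7 other settings. Nfkb1 was lower with semaglutide at 24 weeks only (-0.49 ± 0.16, adjusted p = 0.0208) and with chow reversal at 8 weeks only (-0.44 ± 0.16, adjusted p = 0.0297). Rela was called in none of the 14 comparisons, at -0.02 ± 0.11, adjusted p = 0.927, for semaglutide and -0.11 ± 0.11, adjusted p = 0.437, for vehicle against chow. Rel was not called either, at -0.45 ± 0.19, adjusted p = 0.0681, and 0.40 ± 0.19, adjusted p = 0.0789.

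Among inhibitors and feedback genes, Tnfaip3 (A20), a ubiquitin-editing enzyme, and its partner Tnip1 (ABIN-1) restrain NF-κB signalling and are themselves induced by it. Tnfaip3 had 3.15, 5.19 and 6.87 CPM in semaglutide mice at 24 weeks, 3.21, 4.18 and 9.72 CPM in chow reversal mice, 5.71, 11 and 14.9 CPM in vehicle mice and 1.35, 2.86 and 3.3 CPM in chow mice. Earlier, Tnfaip3 stood at 5.25, 6.73 and 8.87 CPM with semaglutide, 1.56, 4.68 and 6.6 CPM with chow reversal and 6.3, 9.56 and 14.1 CPM with vehicle (week 8), and at 2.7, 5.27 and 9.09 CPM with semaglutide, 2.66, 4.63 and 5.41 CPM with chow reversal and 3.76, 9.65 and 11.3 CPM with vehicle (week 16). The ranges of semaglutide and vehicle mice overlapped at each time for Tnfaip3, and the difference was -0.63 ± 0.22, adjusted p = 0.046, in week 16 and -1.18 ± 0.23, adjusted p = 7.65e-05, in week 24. The 16-week call of Tnfaip3 was lost in 4 of 7 other settings. At 24 weeks the difference of Tnfaip3 between semaglutide and chow reversal was not called (0.02 ± 0.23, adjusted p = 0.964). Tnip1 had 11.6, 16.5 and 26.3 CPM in semaglutide mice at 24 weeks, 11.5, 14.4 and 21.1 CPM in chow reversal mice, 21.8, 26.7 and 45.7 CPM in vehicle mice and 10.2, 12.3 and 14.3 CPM in chow mice. The week 8 levels of Tnip1 were 13.3, 15.1 and 17.7 CPM with semaglutide, 12.6, 14.5 and 20.0 CPM with chow reversal and 16.3, 18.2 and 27 CPM with vehicle, and those of week 16 were 9.03, 14.7 and 22.3 CPM with semaglutide, 14.2, 14.9 and 20.5 CPM with chow reversal and 16.3, 23.8 and 29.5 CPM with vehicle. Tnip1 rose with time on vehicle (0.65 ± 0.15, adjusted p = 0.00599), and semaglutide lowered it, with -0.61 ± 0.15, adjusted p = 0.00391, in week 16 and -0.76 ± 0.15, adjusted p = 1.06e-04, in week 24. Nfkbie (IκBε) was lower at 24 weeks with semaglutide (-0.56 ± 0.16, adjusted p = 0.00827). Nfkbia (IκBα), a rapid target of NF-κB, was called in none of the 14 comparisons, with 0.19 ± 0.11, adjusted p = 0.228, for semaglutide against vehicle and -0.03 ± 0.12, adjusted p = 0.856, for vehicle against chow. Nfkbiz was called in none, and Nfkbib only against chow, higher in vehicle mice (0.42 ± 0.13, adjusted p = 0.00453) and semaglutide mice (0.50 ± 0.12, adjusted p = 0.0011).

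**Figure D3:**
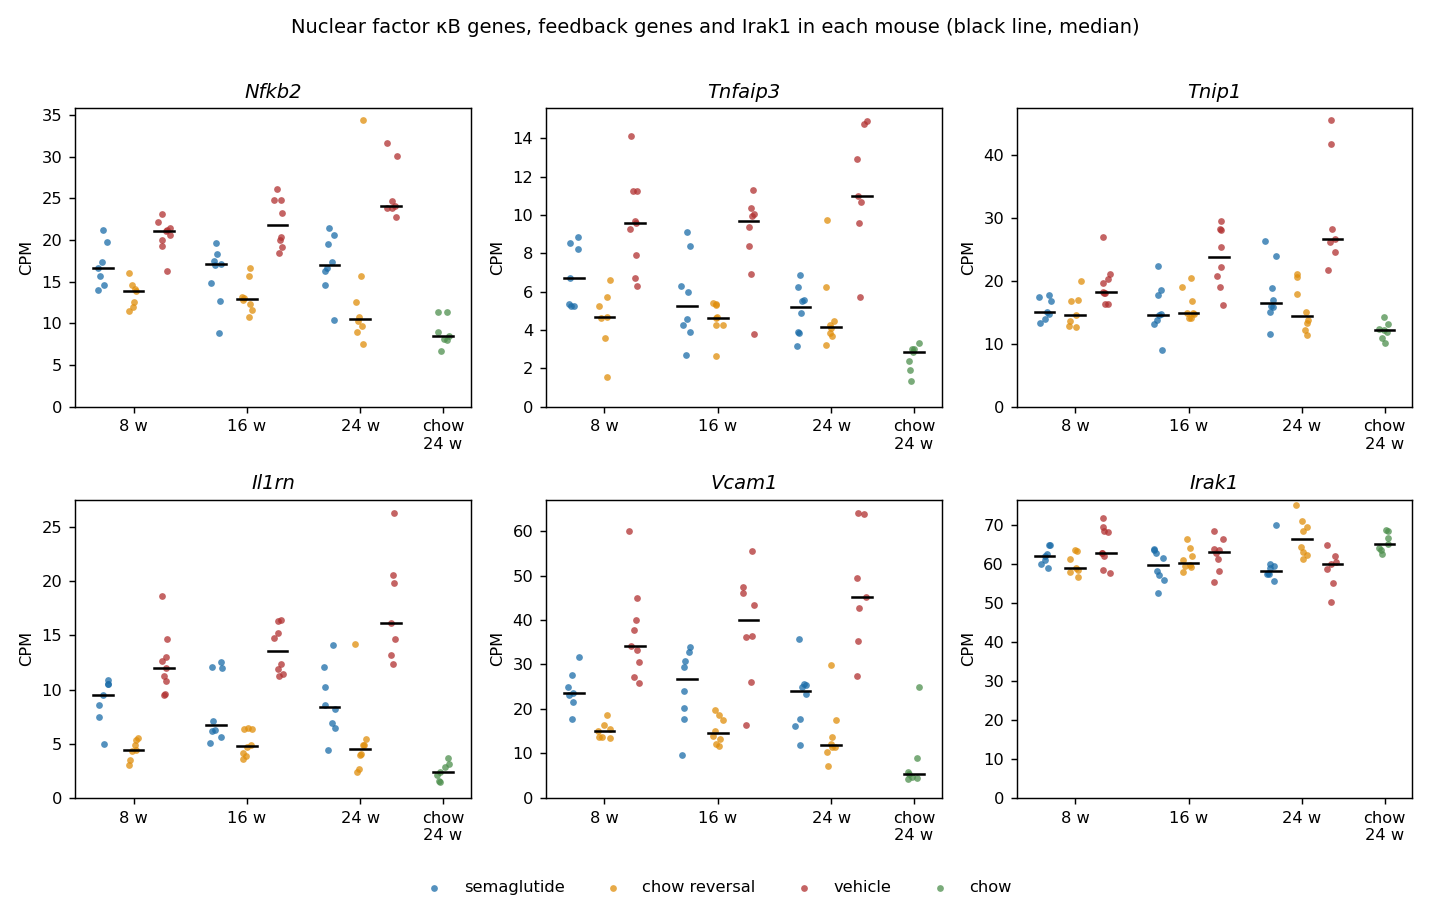
Level in CPM (vertical axis, from 0) of Nfkb2, Tnfaip3, Tnip1, Il1rn, Vcam1 and Irak1 in each mouse (points) by treatment and week, with the group median as a black line. The first 5 are lower with semaglutide than with vehicle at 24 weeks, and Irak1 stays between 50.3 and 75.3 CPM in all mice.

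Promoter sequences show which of these genes carry the letters NF-κB is known to bind close to their start. RefSeq promoters (GRCm38.p6, 250 bases before to 50 after a start) were found for 31 of the 39 genes, and both strands were searched for the κB consensus, a motif of 10 bases. It occurred in 11 of the 31 genes, and in 9.55% of the 27025 genes and 8.46% of the 32851 promoters in the table. One match per gene is shown, 5′ to 3′ on the gene's strand with 10 bases on either side and the match in capitals, for 4 genes that semaglutide lowered at 24 weeks and 3 that it did not; overlapping matches of 1 gene were taken as 1.
Tlr2: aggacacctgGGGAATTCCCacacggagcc
Tnfaip3: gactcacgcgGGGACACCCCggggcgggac
Tnip1: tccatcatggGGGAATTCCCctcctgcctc
Nfkbie: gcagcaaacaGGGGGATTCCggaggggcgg
Nfkbia: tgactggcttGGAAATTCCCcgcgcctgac
Rel: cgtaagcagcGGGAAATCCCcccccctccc
Irak1: agggcggcgcGGGACGCCCCcgtgtggcgg
On GRCm38.p6 these stretches are chr3:83841761-83841790 (minus strand, Tlr2), chr10:19015516-19015545 (minus strand, Tnfaip3), chr11:54962978-54963007 (minus strand, Tnip1), chr17:45555584-45555613 (plus strand, Nfkbie), chr12:55492657-55492686 (minus strand, Nfkbia), chr11:23771042-23771071 (minus strand, Rel), chrX:74023920-74023949 (minus strand, Irak1).
Tlr2, Tnfaip3, Tnip1 and Nfkbie, the first 4, were lower with semaglutide at 24 weeks. Nfkbia, Rel and Irak1, the last 3, hold a match of the same consensus and were not called in that comparison. A match describes the letters only, and Tlr1, Tlr13 and Il1rn, which were lower, had none in the window searched. Matches in Nfkb2, which was also lower, and in Tlr3, Il1r1 and Il6 are not shown.

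Of the cytokines and their receptors, Il1rn, which encodes the IL-1 receptor antagonist, was lower with semaglutide at 16 and 24 weeks. Il1rn had 4.4, 8.42 and 14.1 CPM in semaglutide mice at 24 weeks, 2.36, 4.48 and 14.2 CPM in chow reversal mice, 12.4, 16.2 and 26.3 CPM in vehicle mice and 1.43, 2.37 and 3.67 CPM in chow mice. In week 8, Il1rn had 4.94, 9.5 and 10.9 CPM with semaglutide, 3, 4.45 and 5.49 CPM with chow reversal and 9.5, 12 and 18.7 CPM with vehicle, and in week 16 5.03, 6.69 and 12.6 CPM with semaglutide, 3.6, 4.79 and 6.44 CPM with chow reversal and 11.3, 13.6 and 16.5 CPM with vehicle. Semaglutide and vehicle mice overlapped at each time for Il1rn, and the difference was -0.71 ± 0.22, adjusted p = 0.0257, in week 16 and -0.98 ± 0.23, adjusted p = 9.95e-04, in week 24. Semaglutide exceeded chow reversal in Il1rn by 1.0 ± 0.25, adjusted p = 0.00646, in week 8 and 0.74 ± 0.23, adjusted p = 0.0202, in week 24. The 24-week call was lost in 3 of 9 other settings. Il1rn was also called higher with semaglutide than with chow reversal at 16 weeks, a call lost in 3 of 7 other settings.

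Il1a, which encodes IL-1α, a cytokine released by damaged cells, differed between the 2 treatments. Il1a had 2.01, 3.13 and 6.96 CPM in semaglutide mice at 24 weeks, 0.95, 1.55 and 2.71 CPM in chow reversal mice, 1.41, 3.79 and 5.54 CPM in vehicle mice and 0.895, 1.27 and 1.69 CPM in chow mice. Earlier, Il1a stood at 2.92, 3.42 and 4.18 CPM with semaglutide, 0.7, 1.67 and 2.49 CPM with chow reversal and 2.22, 3.91 and 5.84 CPM with vehicle (week 8), and at 1.99, 3.75 and 5.49 CPM with semaglutide, 1.29, 1.83 and 2.38 CPM with chow reversal and 1.96, 3.23 and 4.46 CPM with vehicle (week 16). At 8 weeks every semaglutide mouse was above every chow reversal mouse. Semaglutide against vehicle was not called, at -0.08 ± 0.22, adjusted p = 0.889, in week 8, 0.13 ± 0.22, adjusted p = 0.74, in week 16 and -0.15 ± 0.23, adjusted p = 0.661, in week 24, while chow reversal lowered Il1a, with -1.21 ± 0.24, adjusted p = 4.96e-05, in week 8, -0.88 ± 0.23, adjusted p = 0.0019, in week 16 and -1.12 ± 0.23, adjusted p = 9.12e-05, in week 24. The direct difference between semaglutide and chow reversal was 1.12 ± 0.25, adjusted p = 0.00177, in week 8, 1.01 ± 0.23, adjusted p = 0.00163, in week 16 and 0.96 ± 0.23, adjusted p = 0.00242, in week 24. Il1a overlaps a predicted gene on the other strand.

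Il1r1, the signalling IL-1 receptor, was called between the treatments at 8 weeks only. At 8 weeks Il1r1 had 37.7, 50.3 and 82.5 CPM in semaglutide mice, 12.8, 19.9 and 30.4 CPM in chow reversal mice and 32.2, 37.5 and 59.6 CPM in vehicle mice. No semaglutide mouse overlapped a chow reversal mouse, and the difference was 1.37 ± 0.34, adjusted p = 0.00627. At 24 weeks replicate 8 of chow reversal had 216 CPM, where no other mouse of any group exceeded 82.5 CPM. Semaglutide against chow reversal was not called with that mouse (-0.78 ± 0.31, adjusted p = 0.0712) or without it (0.06 ± 0.25, edgeR adjusted p = 0.901), and the difference moved to near 0 without it. Tnf was present at 0.50 CPM on average, from 0 to 1.47 CPM in semaglutide mice, from 0.0813 to 0.584 CPM in chow reversal mice, from 0.559 to 1.34 CPM in vehicle mice and from 0 to 0.281 CPM in chow mice at 24 weeks. Semaglutide did not lower Tnf past the threshold (-0.24 ± 0.35, adjusted p = 0.644, in week 24), chow reversal did (-1.66 ± 0.38, adjusted p = 3.45e-04), and the direct difference was 1.42 ± 0.38, adjusted p = 0.0075. Tnfrsf1b, the TNF receptor of immune and endothelial cells, was lower with semaglutide at 16 weeks (-0.35 ± 0.12, adjusted p = 0.0408) and 24 weeks (-0.37 ± 0.12, adjusted p = 0.0206), calls lost in 4 and 1 of 7 other settings, whereas Tnfrsf1a was called in none of the 14 comparisons (0.01 ± 0.13, adjusted p = 0.982, in week 24). Il6 was at most 0.531 CPM in any mouse.

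**Figure D4:**
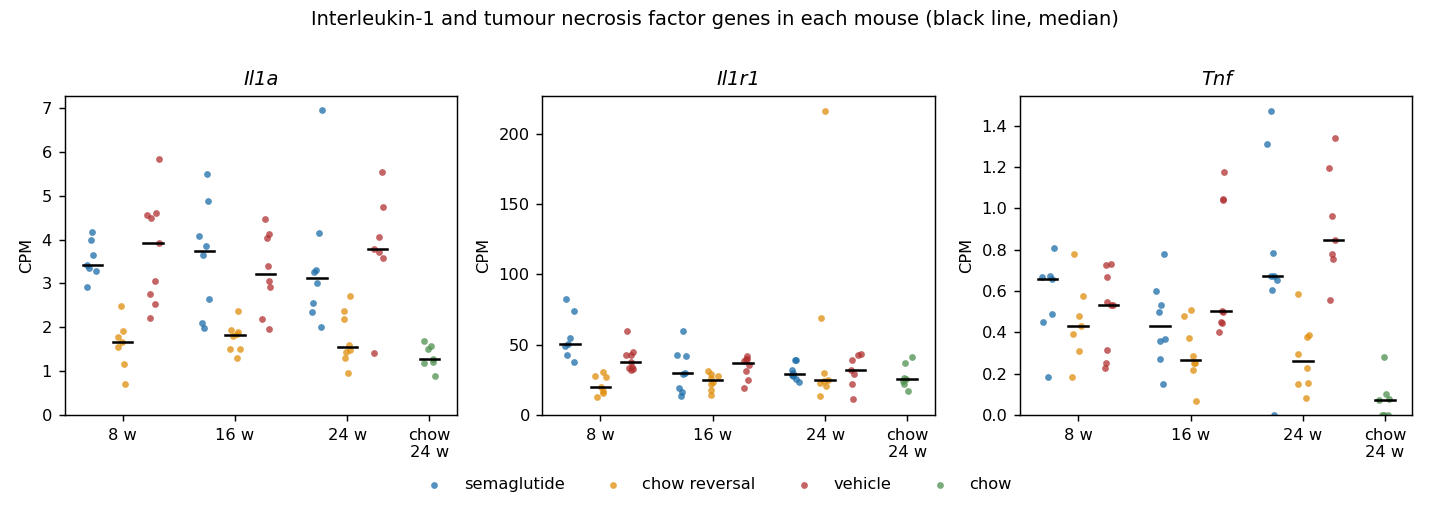
Level in CPM (vertical axis, from 0) of Il1a, Il1r1 and Tnf in each mouse (points) by treatment and week, with the group median as a black line. The Il1a median is lower in chow reversal mice than in semaglutide mice at each time, and a single chow reversal mouse at 24 weeks reaches 216 CPM for Il1r1.

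Vcam1 and Icam1 encode adhesion molecules that hold leukocytes to the vessel wall and are induced by NF-κB. Vcam1 had 11.9, 24.1 and 35.7 CPM in semaglutide mice at 24 weeks, 7.16, 11.8 and 29.9 CPM in chow reversal mice, 27.4, 45.2 and 64.1 CPM in vehicle mice and 4.3, 5.26 and 24.9 CPM in chow mice. The week 8 levels of Vcam1 were 17.7, 23.5 and 31.7 CPM with semaglutide, 13.4, 15 and 18.5 CPM with chow reversal and 25.8, 34.1 and 60.1 CPM with vehicle, and those of week 16 were 9.68, 26.8 and 33.9 CPM with semaglutide, 11.8, 14.5 and 19.8 CPM with chow reversal and 16.5, 39.9 and 55.5 CPM with vehicle. Vcam1 overlapped between semaglutide and vehicle mice at each time, and the difference was -1.05 ± 0.26, adjusted p = 0.00168, in week 24, with no call at 8 or 16 weeks. Icam1 was lower with semaglutide at 24 weeks (-0.54 ± 0.17, adjusted p = 0.0158) and with chow reversal (-1.03 ± 0.17, adjusted p = 1.68e-06). At 8 weeks every semaglutide mouse was above every chow reversal mouse in Icam1. Semaglutide mice were called higher than chow reversal mice in Icam1 at 16 weeks, a call lost in 2 of 7 other settings. Semaglutide mice exceeded chow reversal mice in Icam1 at 24 weeks as well (0.49 ± 0.17, adjusted p = 0.0367), a call lost in 2 of 9 other settings. For Vcam1 that difference was not called (0.67 ± 0.25, adjusted p = 0.0583), but was without replicate 7 of chow reversal, at 0.92 ± 0.25 (edgeR, adjusted p = 0.0061).

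Of 45 further receptor, kinase, IκB and interferon regulatory factor genes tested, semaglutide raised 3 and lowered 7 at 24 weeks, chow reversal raised 7 and lowered 12, and vehicle mice had 19 higher and 9 lower than chow mice. Over all genes semaglutide raised 10.8% and lowered 13.6%, chow reversal raised 17% and lowered 19.1%, and vehicle mice had 25.8% higher and 22% lower, so the semaglutide counts of these 45 were near those of all genes. Il1rap, the co-receptor that IL-1 signalling needs, went the other way from most members: it was higher with semaglutide at 8 weeks (0.55 ± 0.14, adjusted p = 0.0119), 16 weeks (0.64 ± 0.14, adjusted p = 0.00206) and 24 weeks (0.85 ± 0.15, adjusted p = 1.93e-05), and lower in vehicle than in chow mice (-1.55 ± 0.16, adjusted p = 2.03e-13). Its level at 24 weeks was 76.3, 98 and 129 CPM with semaglutide and 32.9, 55.2 and 63.4 CPM with vehicle, with no overlap. Cd180, a Toll-like receptor homologue of B cells and macrophages, fell by 1.43 on the log2 scale at 24 weeks, and Cd36, Irf5 and Traf3 were lower as well, at -0.67 ± 0.18, adjusted p = 0.00472, for Cd36, -0.69 ± 0.16, adjusted p = 9.25e-04, for Irf5 and -0.64 ± 0.16, adjusted p = 0.00221, for Traf3. Tlr12 was lower at 8 weeks only (-0.66 ± 0.20, adjusted p = 0.0326).

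Of 16 further NF-κB target genes tested, semaglutide lowered 6 and raised 1 at 24 weeks, chow reversal lowered 9 and raised 2, and 12 were higher and 1 lower in vehicle than in chow mice, where 24.3%, 36.1% and 47.8% of all genes were called. Ccl2, the chemokine that recruits monocytes, had 0.366, 1.99 and 4.48 CPM with semaglutide and 2.96, 7.55 and 10.8 CPM with vehicle at 24 weeks, a difference of -1.89 ± 0.32, adjusted p = 7.54e-06. Ccl2 was also lower at 8 weeks (-1.20 ± 0.31, adjusted p = 0.0112) but not called at 16 weeks (-0.79 ± 0.30, adjusted p = 0.0741). The next differences are those of 24 weeks. Cxcl10, a chemokine induced by interferon, differed by -1.27 ± 0.26, adjusted p = 1.79e-04, and the endothelial selectins Sele and Selp by -2.44 ± 0.61, adjusted p = 0.002, and -0.87 ± 0.28, adjusted p = 0.0172. Sele was near the limit of detection, with 0 to 4 counts per semaglutide mouse and 1 to 27 per vehicle mouse at 24 weeks. Bcl2a1b was lower too (-1.13 ± 0.29, adjusted p = 0.00248), although its reads may be shared with near-identical copies. Saa3, an acute phase gene, was the 1 that semaglutide raised: it had 10.7, 27.5 and 96.5 CPM with semaglutide and 6.93, 14.2 and 14.8 CPM with vehicle at 24 weeks, a difference of 1.76 ± 0.39, adjusted p = 4.66e-04. Saa3 was also higher at 16 weeks (1.19 ± 0.36, adjusted p = 0.0224) and not called at 8 weeks (0.54 ± 0.36, adjusted p = 0.427).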

How the data were processed

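Estimated counts per gene were deposited by the authors, who per the labels and the paper aligned reads to GRCm38 with STAR 2.7.3a and quantified them with Salmon 1.2.0 after checks with FastQC 0.11.9 and Picard; RNA came from the left lateral lobe and a directional library kit was used. The annotation release and the strand setting of the counting are not given in the sources used here, so reads of genes with an antisense partner (Tlr3, Myd88, Irak2, Irak3, Irak4, Nfkb2, Nfkbib, Il1a, Vcam1 and Icam1) may not be told apart from it. Counts were rounded to whole numbers, since 7.55% of values were fractional. Symbols were found for 55141 of 55487 identifiers, and coordinates and exon lengths came from GENCODE vM21 on GRCm38.

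Tests used edgeR 4.0.16 in R 4.3.3 (low-count filter, TMM factors from 0.793 to 1.31, quasi-likelihood F test, 14904 genes, Benjamini-Hochberg, threshold 0.05), with the 14 comparisons as contrasts of 1 fit, and DESeq2 1.42.0 as the other tool. The procedure was tested on simulated data. Other settings were RLE factors, library totals, no filter, only the groups compared, the fit without the 3 latest-numbered libraries, and sets of 10 consecutive library numbers as a term. Leaving out either of 2 chow reversal mice or 1 chow mouse was added after seeing the data. The 39 members and all gene lists were chosen with earlier results of these data known. Genes described in full are the 12 with the smallest p when the 3 semaglutide effects were tested together, and those called against the direction of most members; genes under 1 CPM on average are given by range, and up to 6 genes of each further list are named. Il1a and Il1r1, which fall outside this rule, are given with their levels and were chosen after their values were seen, as were the other members named with single differences and the 7 genes whose promoter matches are shown. The p-values measure the spread between mice. The labels give no replicate numbers; those used here name mice in accession order and pair nothing, so tests were unpaired, and library-number sets, which hold up to 2 mice of a group, were tried as a term.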

Additional observations from a re-analysis of the deposited data

Results flagged for a closer look

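In 25 of 140 sets of 1 gene in 1 group, 17.9%, 1 mouse stood apart from its group by the gap to its nearest neighbour relative to the range (Dixon's 95% critical value). Chance gives this in about 5% of sets of normally distributed values. CPM were not transformed and need not be so distributed, so 17.9% is not read as an excess over chance. Values are CPM, and those of 1 mouse are not independent of each other. Among chow reversal mice at 24 weeks, replicate 7 was the highest for Tlr1 at 5.36 CPM (next 2.11), Tlr13 at 5.07 CPM (next 2.85), Tnfaip3 at 9.72 CPM (next 6.25), Il1rn at 14.2 CPM (next 5.45), Cd14 at 17.8 CPM (next 3.94), Vcam1 at 29.9 CPM (next 17.6), Tlr7 at 3.24 CPM (next 1.51) and Nfkb2 at 34.4 CPM (next 15.7). Among chow mice at 24 weeks, replicate 5 was the highest for Tlr2 at 4.14 CPM (next 2.24), Tlr1 at 2.39 CPM (next 0.880), Tlr13 at 3.58 CPM (next 1.09), Cd14 at 3.02 CPM (next 1.76), Vcam1 at 24.9 CPM (next 8.90) and Tlr7 at 1.83 CPM (next 0.621).

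Among vehicle mice at 16 weeks, replicate 6 was the highest for Tlr1 at 9.37 CPM (next 6.22), Tlr13 at 12.5 CPM (next 8.88) and Tlr9 at 2.69 CPM (next 1.45). Among semaglutide mice at 8 weeks, replicate 3 was the highest for Tlr1 at 5.41 CPM (next 3.43) and Tlr13 at 12.3 CPM (next 5.23). Among chow reversal mice at 16 weeks, replicate 5 was the lowest for Tnfaip3 at 2.66 CPM (next 4.27). Among chow reversal mice at 8 weeks, replicate 7 was the highest for Tlr1 at 3.52 CPM (next 2.15). Among semaglutide mice at 24 weeks, replicate 2 was the highest for Irak1 at 69.9 CPM (next 60.1). Among semaglutide mice at 24 weeks, replicate 8 was the highest for Tlr7 at 5.95 CPM (next 3.54). Among vehicle mice at 24 weeks, replicate 4 was the highest for Tlr1 at 9.94 CPM (next 6.94). Among vehicle mice at 8 weeks, replicate 6 was the highest for Tnip1 at 26.98 CPM (next 21.2).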

How the results depend on the processing

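No paired analysis was possible because the labels give no replicate numbers; sets of consecutive library numbers were fitted as a term. Over the 14 comparisons and 7 planned settings, 82 of 98 counts of called members stayed within 1.5 times of the reported count, 10 were smaller and 6 larger; the cause was not tested. For semaglutide against vehicle at 8 weeks, where none was called, DESeq2 called 1, library totals 3 and a fit of only the groups compared 6. At 16 weeks, against 11, library totals gave 20, no filter 6, only the groups compared 5, leaving out the 3 latest-numbered libraries 3, and library-number sets 5. The count over all genes moved as well, as given above. For semaglutide against chow reversal, only the groups compared gave 19 at 8 weeks (11 reported) and 2 at 24 weeks (8 reported), and leaving out the latest-numbered libraries gave 5 at 16 weeks (8 reported). For chow reversal against chow, library totals gave 20 and only the groups compared 0 (11 reported). For vehicle at 24 against 8 weeks, library totals, no filter and library-number sets each gave 1 (2 reported). Leaving out single mice, chosen after seeing the data, gave 17 for semaglutide against chow reversal at 24 weeks without replicate 7 of chow reversal and 6 without replicate 8, and between 2 and 20 for chow reversal against chow. Single called members kept their direction except Irak1 and Irak2 under library totals: Irak1 was -0.12 in chow reversal against vehicle at 24 weeks, 0.27 in vehicle mice and 0.044 in semaglutide mice set against chow, and Irak2 was 0.10 in vehicle mice set against chow. Of the other 1455 values of called members, 1360 kept their call and 95 lost it. Depth limits the members under 1 CPM (Tnf, Tlr6, Tlr9 and Il6) and, of the further genes, Sele.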
